A study of Mus musculus with 8 samples.

Results

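Meiotic maturation of mouse oocytes was followed here in control animals, by comparing germinal vesicle (GV) oocytes with metaphase II (MII) oocytes. The 4 control libraries, 2 of GV oocytes and 2 of MII oocytes, were chosen from the 8 libraries of the series by their genotype and stage labels, and all 54838 gene rows of the count table were used. The series was made to study BAF250a, the chromatin remodelling subunit encoded by Arid1a, which was deleted in oocytes with a Gdf9-cre transgene, a recombinase driven by the promoter of an oocyte growth factor gene. The controls used here are labelled wildtype, C57BL/6 and oocyte, with no treatment, and each library was made from a pool of 5 to 10 oocytes. The labels do not give the age of the mice, whether controls carried floxed alleles without cre, whether MII oocytes matured in the animal or in culture, or whether the 2 libraries of a stage came from different mice. All p-values therefore measure only the spread between libraries, which may be technical.

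A GV oocyte is held in prophase of the first meiotic division by cAMP, which keeps the kinase CDK1 inactive. When the arrest ends, the nuclear envelope breaks down, the spindle forms, a set of chromosomes leaves in the first polar body, and MOS-MAPK signalling with the inhibitor EMI2 holds the egg at metaphase II until fertilization. Transcription is silent over this interval, so proteins are made from stored maternal mRNAs, some of which gain poly(A) tails and are translated while many others lose their tails and are degraded.

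Reads assigned to genes numbered 19587421 to 20913886 in the GV libraries and 26005880 to 29740748 in the MII libraries. Reads were seen for 19249 and 19169 genes in the GV libraries and for 15632 and 16400 genes in the more deeply sequenced MII libraries. Correlations of log2 CPM (read counts scaled to a common library total) over genes were 0.977 between the GV libraries, 0.967 between the MII libraries and 0.743 to 0.762 between stages, as a description across genes. Arid1a gave 391 and 558 CPM by library totals in control GV libraries and 1617 and 1316 in control MII libraries, against 3.79 to 33.3 in the 4 knockout libraries, so all 4 control libraries carried the transcript. Both MII columns of the count table carry the same name, so the MII libraries are called a and b, and their values are always given in that order after the 2 GV libraries. CPM values of single genes below are scaled by the trimmed mean of M-values (TMM), and levels summed over a list are CPM by library totals. Both are relative to the other transcripts of a library. RNA per oocyte was not measured, so a larger number of molecules and a smaller loss than that of other transcripts cannot be told apart, and neither can fewer cells and less RNA per cell.

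Of the 15572 genes with enough reads to test, 3302 (21.2%) were higher in MII and 4347 (27.9%) were lower, 49.1% in all (edgeR quasi-likelihood F-test, Benjamini-Hochberg adjusted p below 0.05, two-sided). Without control GV replicate 1, 2158 rose and 2917 fell. The median log2 fold change over all genes tested was -0.201, and other scalings moved it to -0.333 (size factors of DESeq2) and -0.356 (library totals). Keeping only genes with at least 5 CPM in 2 libraries moved it to 0.022. Falls were larger than rises: the median log2 fold change was -3.81 among genes that fell and 1.89 among genes that rose. A change of more than 16-fold was seen for 2027 genes that fell and 214 that rose. No read was left in either MII library for 680 of the genes that fell. Their median fall was at least 9.36-fold, with both MII libraries set to a floor of 3 reads per library.

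The pool of transcripts was turned over. Genes that fell held 50.1% and 48.9% of all reads in the GV libraries and 6.39% and 6.36% in the MII libraries. Genes that rose held 18.52% and 21.15% of reads at GV and 59.9% and 61.6% at MII. The remaining genes kept about the same share, 29.9% to 31.3% at GV and 32.0% to 33.6% at MII. These shares describe genes chosen by the same comparison and are no further test of it.

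**Figure D1:**
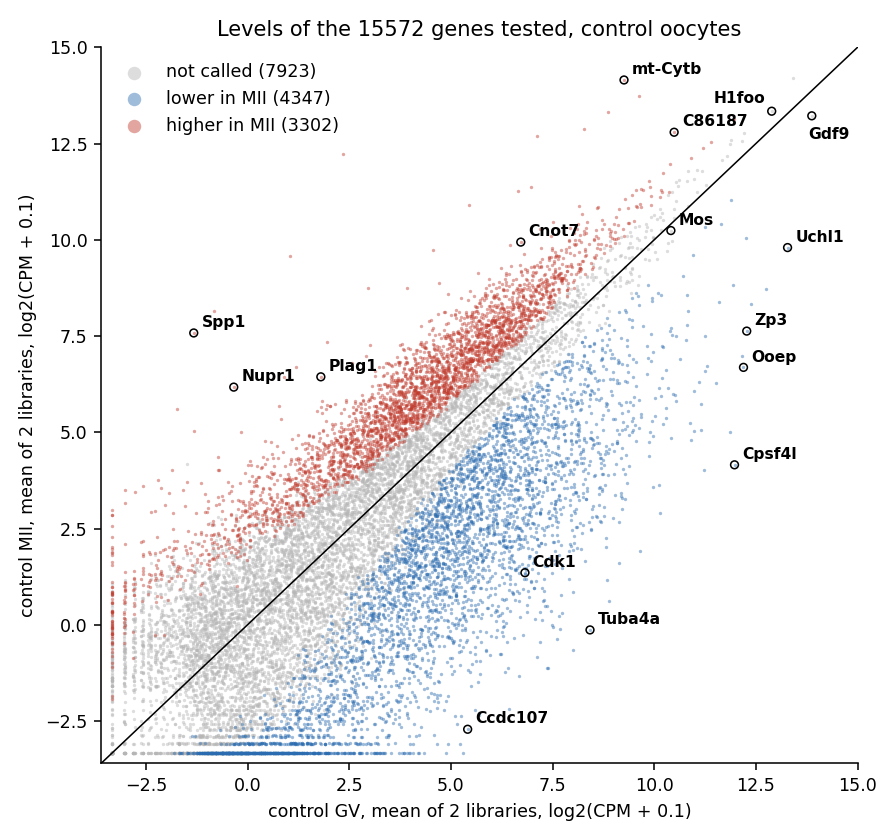
Mean level of each of the 15572 genes tested in 2 control GV libraries (x axis) and 2 control MII libraries (y axis), as log2(CPM + 0.1), with the line of equal levels. Points are coloured by call (4347 lower, 3302 higher in MII), and the cloud of genes that fell reaches the floor of the y axis, where 0 reads were counted.

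To compare genes with each other, levels were taken per kilobase of exonic length. Among protein-coding genes of the nuclear genome, Gdf9, the oocyte growth factor, was first at GV with 7401 CPM per kb, followed by H1foo, the oocyte linker histone, with 6320, and Uchl1, a ubiquitin hydrolase, with 6095. At MII the order was H1foo with 8642, Zbed3, a member of the subcortical maternal complex, with 8510, and Bcl2l10, an oocyte member of the BCL2 family, with 5710. Only 5 of the 12 highest genes were the same at both stages.

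The genes of the egg coat fell together. The zona pellucida glycoproteins are made during oocyte growth and form the matrix that sperm bind. Zp2 was at 2675 and 3174 CPM in the GV libraries and at 79.5 and 76.3 CPM in the MII libraries, a log2 fold change of -5.23 ± 0.35 (SE, adjusted p = 1.26e-05). Zp3 went from 4811 and 5107 CPM to 212 and 184 CPM (-4.65 ± 0.37). Zp1 went from 2523 and 2521 CPM to 117 and 92.9 CPM (-4.58 ± 0.35). Both GV libraries stood far above both MII libraries for all 3 genes. Over all 15572 genes tested, the groups did not overlap for 12125.

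Secreted signals differed from each other. Fgf8, a growth factor named here after its values were seen, went from 214 and 112 CPM to 7.46 and 3.87 CPM (-4.85 ± 0.56). Gdf9 was at 14984 and 15081 CPM at GV and at 10560 and 8547 CPM at MII, a log2 fold change of -0.65 ± 0.34 that did not pass (adjusted p = 0.138). It was called lower with library totals as the scaling, with the DESeq2 Wald test and without knockout GV replicate 1. Bmp15, its partner in signalling to cumulus cells, was at 967 and 1292 CPM and then 1673 and 1882 CPM (0.65 ± 0.34, adjusted p = 0.132), and Kit, the receptor for granulosa cell kit ligand, also did not pass (0.48 ± 0.32). Members of the Oosp and Oog families of oocyte genes moved in both directions. Oosp3 rose from 379 and 191 CPM to 1794 and 1944 CPM (2.71 ± 0.38), Oog3 from 674 and 835 CPM to 2610 and 2405 CPM (1.73 ± 0.31), and Oosp1 from 3039 and 1672 CPM to 5120 and 5555 CPM (1.18 ± 0.40). The rise of Oosp1 was lost when control GV replicate 2 or either MII library was left out. Oosp2 (-1.17) and Oog4 (-1.46) fell, and Oog1 and Oog2 were not called. Il7, a cytokine, rose from 26.1 and 31.8 CPM to 187 and 164 CPM (2.60 ± 0.34). In the list of 18 zona and secreted genes, 4 rose and 6 fell with a median of -0.40, close to the background of 21.2% and 27.9%.

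Transcription factors that drive oocyte growth genes were among the falls. Figla, which activates the zona genes, went from 30.03 and 36.4 CPM to 1.00 and 0.264 CPM (-5.72 ± 0.64, adjusted p = 8.56e-05). Nobox went from 1144 and 754 CPM to 37.2 and 27.2 CPM (-4.88 ± 0.37), and Foxr1, a forkhead factor, fell by 3.14 on the log2 scale. Factors with wider roles were among the rises. Hsf1, the heat shock factor, rose from 243 and 155 CPM to 703 and 745 CPM (1.86 ± 0.30), Ctcf, the insulator protein, rose by 1.62 ± 0.28 and Klf4 by 2.16 ± 0.37. The factors named are those with the smallest p in each direction, and the list was not divided by role. Of its members 27.6% rose and 20.7% fell, against 21.2% and 27.9% of all genes tested, and 15 were not called. Of 29 factors tested, 8 rose (5 without MII library b) and 6 fell, with a median of 0.42.

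Maternal effect genes, whose products the embryo needs before its own genome is active, fell more often than the background: 19 of 38 fell and 11 rose (7 without control GV replicate 1), with a median of -0.55. The subcortical maternal complex, an assembly under the egg membrane, lost transcripts of several members. Ooep went from 5794 and 3590 CPM to 94.5 and 111 CPM (-5.51 ± 0.54), Padi6 from 3558 and 5658 CPM to 133 and 119 CPM (-5.20 ± 0.42), Tle6 from 6855 and 6937 CPM to 451 and 399 CPM (-4.02 ± 0.41), and Nlrp5 from 907 and 1855 CPM to 198 and 168 CPM (-2.91 ± 0.47). Uchl1 went from 9993 and 9899 CPM to 898 and 883 CPM (-3.48 ± 0.39). Zfp57, which protects imprints, fell too (-3.13 ± 0.48). The groups did not overlap for any of these genes, as for 12125 of the 15572 genes tested.

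Other maternal effect genes rose or were not called, the latter including H1foo (0.45 ± 0.41) and Zbed3 (0.80 ± 0.53). Hells, a remodeller that helps DNA methylation, rose from 12.1 and 11.7 CPM to 69.8 and 77.5 CPM (2.63 ± 0.28), Prmt5, an arginine methyltransferase, from 23.2 and 22.2 CPM to 121 and 125 CPM (2.44 ± 0.27), and Uchl3 from 36.5 and 39.6 CPM to 154 and 150 CPM (2.00 ± 0.25). Each had higher values in both MII libraries than in both GV libraries. The groups did not overlap for 3299 of the 3302 genes called higher.

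Genes of the CDK1 switch moved in both directions. The kinase gene Cdk1 itself went from 106 and 120 CPM at GV to 0.577 and 4.33 CPM at MII (-5.51 ± 0.72, adjusted p = 0.000195). Its cyclin partner Ccnb1, which is made from stored mRNA as meiosis resumes, rose from 1096 and 596 CPM to 2330 and 2670 CPM (1.56 ± 0.38, adjusted p = 0.00718). This call was lost without control GV replicate 2 and without MII library b. Ccna2 rose from 93.7 and 115 CPM to 445 and 460 CPM (2.12 ± 0.25), while Ccno, an atypical cyclin, went from 1821 and 1724 CPM to 175 and 161 CPM (-3.40 ± 0.29). Cdc25b, the phosphatase that activates CDK1, went from 89.8 and 131 CPM to 23.2 and 30.4 CPM (-2.04 ± 0.34). Wee2, the oocyte kinase that opposes it, was at 161 and 158 CPM and then 140 and 172 CPM, so its stages overlapped (-0.04 ± 0.31, adjusted p = 0.934). Of 36 genes of the switch, 12 rose and 9 fell (median 0.55).

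Most regulators of the cAMP arrest that were called rose, 11 of 21 (7 without control GV replicate 1) against 2 that fell, with a median of 1.58. Pde8a and Pde3a encode phosphodiesterases that break down cAMP. Pde8a rose from 10.1 and 16.05 CPM to 103 and 112 CPM (3.04 ± 0.34). Pde3a, the enzyme whose activity ends the arrest, rose from 37.2 and 82.4 CPM to 179 and 163 CPM (1.52 ± 0.40), a call lost without control GV replicate 1. Anchors and regulatory subunits of protein kinase A also rose: Akap10 by 2.36 ± 0.29 and Prkar2a by 1.86 ± 0.28. Gpr3, the receptor that keeps cAMP high, was at 67.0 and 65.7 CPM and then 67.2 and 60.5 CPM and was not called. Both falls, of Adcy1 (-2.73 ± 0.96), an adenylyl cyclase, and Akap1 (-0.85 ± 0.31), were lost when any of several libraries was left out.

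The arrest at metaphase II rests on Mos, whose kinase activates the MAP kinase cascade, and on Fbxo43, which encodes EMI2. Mos was at 1556 and 1166 CPM at GV and at 1271 and 1149 CPM at MII, with overlapping groups (-0.17 ± 0.35, adjusted p = 0.710). Fbxo43 rose from 145 and 101 CPM to 448 and 377 CPM (1.75 ± 0.32, adjusted p = 0.0014). Within the cascade, paralogs moved apart. Map2k1 rose from 176 and 154 CPM to 591 and 690 CPM (1.95 ± 0.29) and Map2k2 went from 89.8 and 84.1 CPM to 25.9 and 20.7 CPM (-1.90 ± 0.34). Mapk3 went from 1599 and 1366 CPM to 182 and 178 CPM (-3.04 ± 0.37). Of the 17 genes, 4 rose and 4 fell, 23.5% each, against 21.2% and 27.9% of all genes tested. The list's median of -0.17 changed sign when single control libraries were left out.

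**Figure D2:**
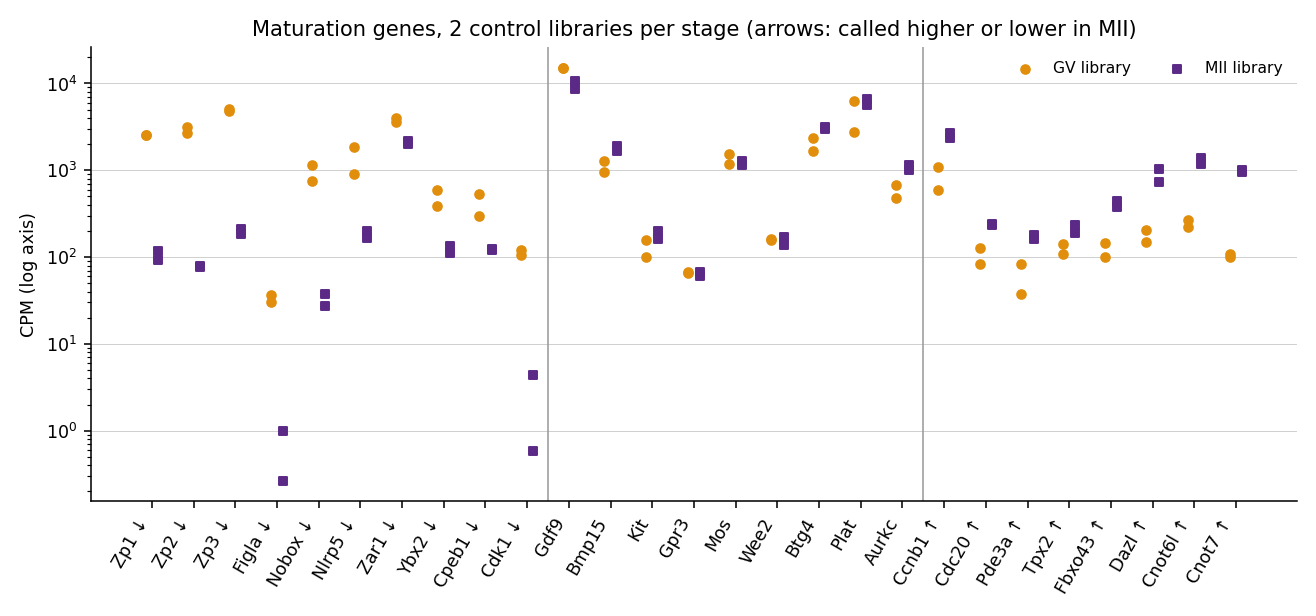
CPM on a log axis of 27 genes that accounts of oocyte maturation turn on, with 2 GV libraries (circles) and 2 MII libraries (squares) for each gene. The left block was called lower in MII, the middle block was not called and the right block was called higher. Cdk1 and Figla were under 5 CPM in both MII libraries.

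Among genes that segregate chromosomes, falls outnumbered rises in the checkpoint and kinetochore lists. Of 29 genes of the spindle checkpoint and the anaphase-promoting complex (APC/C), 15 fell (9 without control GV replicate 1) and 8 rose, with a median of -0.84. The activators of the APC/C went in opposite directions. Fzr1, which acts in the prophase arrest, went from 367 and 461 CPM to 14.5 and 25.9 CPM (-4.36 ± 0.48). Cdc20, which acts at anaphase, rose from 126 and 83.6 CPM to 243 and 232 CPM (1.18 ± 0.29, adjusted p = 0.00707), though not without control GV replicate 2. Checkpoint gene Mad2l1 rose from 83.4 and 82.5 CPM to 402 and 423 CPM (2.31 ± 0.33), and APC/C subunit Anapc10 rose by 2.69 ± 0.32 while Anapc2 (-3.47 ± 0.45) and Anapc7 (-3.34 ± 0.38) fell.

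Among 69 kinetochore and spindle genes, 28 fell and 18 rose (median -0.11). Tacc3, which organizes spindle microtubules, went from 1006 and 1237 CPM to 7.04 and 7.83 CPM (-7.24 ± 0.48). Centromere genes Cenpq (-4.26 ± 0.36) and Cenpm (-3.75 ± 0.39) fell. Kif20b, a kinesin, rose from 16.1 and 17.1 CPM to 122 and 141 CPM (2.99 ± 0.38), Nedd1, which recruits gamma-tubulin, from 72.7 and 66.4 CPM to 394 and 380 CPM (2.48 ± 0.28), and the kinetochore gene Dsn1 by 1.83 ± 0.25.

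Tubulins, the subunits of microtubules, formed a nearly uniform group: 10 of 12 fell and none rose (median -3.53). Tuba4a went from 329 and 357 CPM to 1.19 and 0.43 CPM (-8.74 ± 0.50), Tubb4b from 2217 and 1525 CPM to 34.3 and 40.4 CPM (-5.64 ± 0.38) and Tubb2b from 59.3 and 94.2 CPM to 1.54 and 1.45 CPM (-5.68 ± 0.41). Summed over the family, CPM was 6681 and 6614 at GV and 1682 and 1206 at MII. Tuba1a and Tubb3 were the 2 members not called. Tubulin copies are close in sequence, so reads counted for 1 copy could belong to another.

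In the Aurora and Polo kinase list 7 of 18 fell (4 without control GV replicate 1 or MII library a) and 3 rose (1 without control GV replicate 1 or MII library b), with a median of -0.21. Bub1, the checkpoint kinase, went from 27.7 and 36.4 CPM to 0.923 and 1.55 CPM (-4.68 ± 0.74), and the passenger complex gene Birc5 from 866 and 990 CPM to 121 and 120 CPM (-2.94 ± 0.38). Plk4, the regulator of centriole assembly, rose from 23.7 and 20.2 CPM to 222 and 249 CPM (3.42 ± 0.29). Aurkc, the Aurora kinase of germ cells, was at 681 and 477 CPM and then 1162 and 1000 CPM and was not called with the spread of all 8 libraries (0.90 ± 0.77, adjusted p = 0.355). It was called higher from the 4 control libraries alone. Tpx2, the activator of Aurora A, passed narrowly (0.76 ± 0.27, adjusted p = 0.0414), and the call was lost under each other normalization and without any single control library.

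In both the cohesin and the actin list, rises outnumbered falls. Of 35 genes of cohesin and the meiotic chromosome axis, 19 rose and 8 fell (5 without control GV replicate 1), with a median of 1.33. Rad21, a cohesin kleisin, rose from 14.0 and 15.6 CPM to 102 and 123 CPM (2.93 ± 0.29), Esco1, which acetylates cohesin, from 70.4 and 93.6 CPM to 526 and 607 CPM (2.79 ± 0.32), and Wapl, which releases it, from 71.2 and 92.4 CPM to 489 and 461 CPM (2.54 ± 0.30). Smc1a (-2.08 ± 0.37) and Cdca5, the sororin gene (-1.56 ± 0.33), fell. So did Ncaph2 (-2.06 ± 0.42), a condensin gene that the list also counts. Of 34 genes of actin and polar body extrusion, 16 rose (10 without MII library b) and 5 fell, with a median of 0.75. The nucleator Fmn2, which moves the spindle to the cortex, rose from 84.2 and 86.6 CPM to 378 and 519 CPM (2.39 ± 0.27), while its partner Spire2 went from 34.7 and 25.6 CPM to 0.192 and 0.165 CPM (-7.36 ± 1.08). Wasl, an activator of branched actin, rose by 2.37 ± 0.26, and the actin-binding genes Pfn1 (-4.63 ± 0.59) and Cfl1 (-2.72 ± 0.34) fell.

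**Figure D3:**
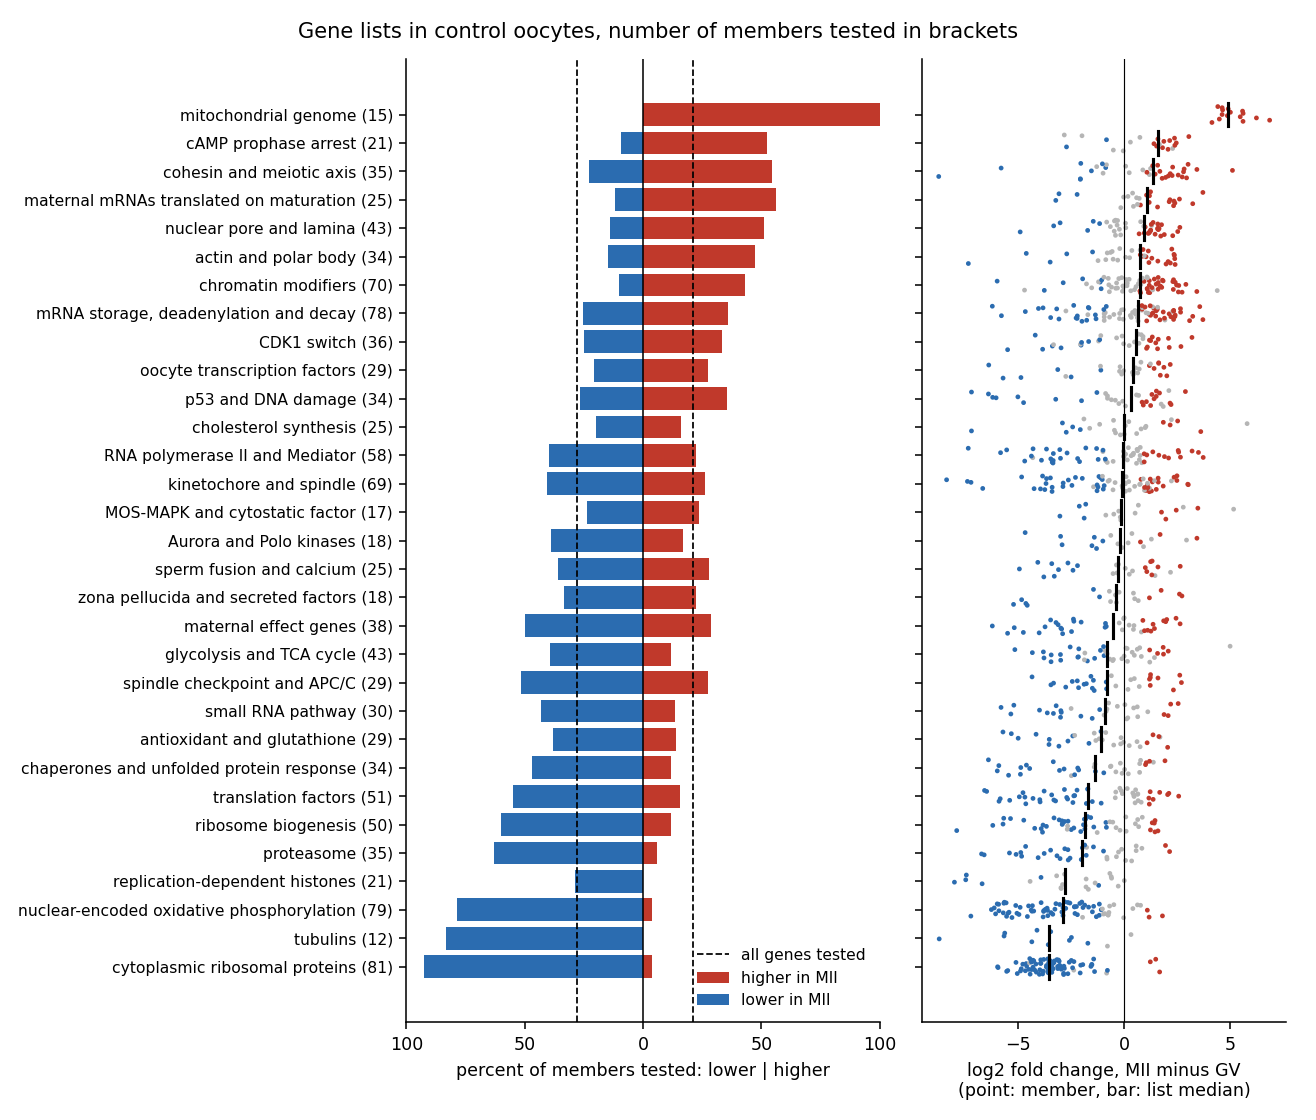
Left, percent of tested members called higher (right of 0) or lower (left of 0) in MII for 31 gene lists, with dashed lines at the background of 21.2% and 27.9%. Right, log2 fold change of each member, with a bar at the list median, running from the ribosomal proteins at -3.56 to the mitochondrial genome at 4.90.

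Genes that store and remove maternal mRNA moved in both directions, with 28 rises (35.9%) and 20 falls (25.6%) among 78. Of all genes tested 21.2% rose and 27.9% fell, and the list median was 0.62. The catalytic subunits of the CCR4-NOT deadenylase, which cuts poly(A) tails, rose: Cnot7 from 100 and 110 CPM to 964 and 1002 CPM (3.22 ± 0.31, adjusted p = 4.28e-05), and Cnot6l from 222 and 269 CPM to 1169 and 1385 CPM (2.38 ± 0.28). Cnot6 (2.19) and Cnot8 (1.48), which complete the catalytic subunits and were added here after their values were seen, rose too. Pan3, of another deadenylase complex, rose by 2.39 ± 0.28. Cnot1, the scaffold of CCR4-NOT, fell from 163 and 153 CPM to 15.2 and 13.1 CPM (-3.48 ± 0.31), and Cnot10, a non-catalytic subunit, from 86.7 and 97.8 CPM to 1.88 and 1.42 CPM (-5.80 ± 0.44). Btg4, the adaptor that brings the deadenylase to maternal mRNA, was at 2379 and 1655 CPM and then 3169 and 3009 CPM and was not called (0.61 ± 0.39, adjusted p = 0.216).

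RNA-binding genes of mRNA storage and dormancy were among the falls. Ybx2, which packages stored mRNA, went from 596 and 386 CPM to 134 and 111 CPM (-2.003 ± 0.36), Cpeb1, which binds the cytoplasmic polyadenylation element, from 297 and 540 CPM to 120 and 124 CPM (-1.78 ± 0.34), and the oocyte cap-binding gene Eif4e1b from 1872 and 1686 CPM to 380 and 378 CPM (-2.23 ± 0.30). Zar1, an RNA-binding maternal factor, was at 3994 and 3600 CPM and then 2166 and 2032 CPM (-0.85 ± 0.32, adjusted p = 0.0464), a call lost without any 1 of the control libraries. Rises were also seen among RNA-binding genes: Cpeb4 from 5.48 and 1.97 CPM to 46.2 and 50.6 CPM (3.70 ± 0.47), Dazl from 151 and 205 CPM to 740 and 1036 CPM (2.32 ± 0.33), and Lsm14a from 154 and 139 CPM to 1229 and 1240 CPM (3.07 ± 0.30). The RNA-binding genes were not divided by role.

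A set of 25 genes known to be translated from stored mRNA during maturation was taken as a group. Of these, 14 rose (9 without control GV replicate 2) and 3 fell, with a median of 1.05, against 21.2% and 27.9% of all genes. Many such mRNAs carry the cytoplasmic polyadenylation element, a U-rich stretch near the poly(A) signal that CPEB1 binds. Its letters TTTTAT or TTTTAAT were looked for on the sense strand in the last 150 bases of annotated 3′ UTRs (GENCODE M21, mm10), where matches to both motifs could overlap each other. Of the 25 genes, 12 held an element: 6 of the 14 that rose, none of the 3 that fell and 6 of the 8 not called. In this group a 3′ UTR shorter than the window, such as that of Cpeb4 (45 bases), was searched whole. The shares over all genes given below leave such genes out. Stretches around the element are printed 5′ to 3′ for genes of each kind, with the element in capitals, because they carry the signal the translated group is known for.

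Genes that rose were represented by the following stretches, at chr8:40493037-40493065 (minus strand) for Cnot7, chr8:85308007-85308035 (plus) for Orc6, which encodes an origin recognition subunit, chr13:100778774-100778803 (minus) for Ccnb1, chr14:30527011-30527040 (plus) for Dcp1a, a decapping activator, and chr19:11711800-11711828 (plus) for Oosp3.
Cnot7: ttaaggtacaTTTTATatcaataaaaata
Orc6: gttttttaaaTTTTATttcactaaatgtt
Ccnb1: tcatttgctgTTTTAATttatacatctgat
Dcp1a: aaatatatttTTTTAATaaaatttcaaaac
Oosp3: ctatcagtgtTTTTATcctttactgtaac

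Genes that were not called also carried elements, as at chr9:51119799-51119827 (plus) for Btg4, chr8:22782746-22782775 (plus) for Plat, the tissue plasminogen activator, chr6:40466758-40466787 (plus) for Wee2, and chr2:118641555-118641583 (plus) for the checkpoint gene Bub1b. Ybx2, at chr11:69941534-69941562 (plus), carried 1 and fell.
Btg4: ataaatccctTTTTATgtctttttaaaag
Plat: tatatttataTTTTAATctattttagtttt
Wee2: ttttaacataTTTTAATccagatcattgta
Bub1b: tcactgtgtaTTTTATaataaaatagttt
Ybx2: tctgaagccaTTTTATgaactgtcatgtg

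The number of elements did not order these genes by their change. Oosp3 had 5 matches, Cnot7 and Dcp1a had 3 each, and Btg4, Wee2, Plat and Bub1b had 2 each and were not called. Dazl, Cnot6l, Dcp2 and Slbp had none in this window and rose. Plat was at 6355 and 2757 CPM at GV and at 6639 and 5605 CPM at MII (0.43 ± 0.43). The zona genes had annotated 3′ UTRs of 34, 49 and 13 bases (Zp1, Zp2 and Zp3) and no match. A match is only these letters in an annotated end, and the ends used by the oocyte were not measured.

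Over all protein-coding genes tested whose 3′ UTR spans the window, an element was found in 3018 of 11789 (25.6%). It was found in 1155 of 2938 genes that rose (39.3%), in 25.3% of those not called and in 395 of 3042 that fell (12.98%). At least 2 matches were found in 9.67% of genes that rose and 1.61% of genes that fell. The order was the same in the last 100 bases (31.7%, 19.7% and 9.41%) and the last 300 bases (53.1%, 37.6% and 21.4%). Base composition moved with it: the median A+T content of the window was 67.3% in genes that rose and 56.7% in genes that fell. The poly(A) signal AATAAA or ATTAAA in the last 50 bases was found in 85.9% and 71.1%.

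In each of 4 ranges of A+T content, genes with an element rose more often than genes without 1. In windows of 60 to 70% A+T, 35.4% of the 1203 genes with an element rose and 15.2% fell, against 26.1% and 21.8% of the 3203 without. At 50 to 60%, 24.1% of 461 genes with an element rose, against 12.3% of 3038. The element's part in the change was not tested.

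**Figure D4:**
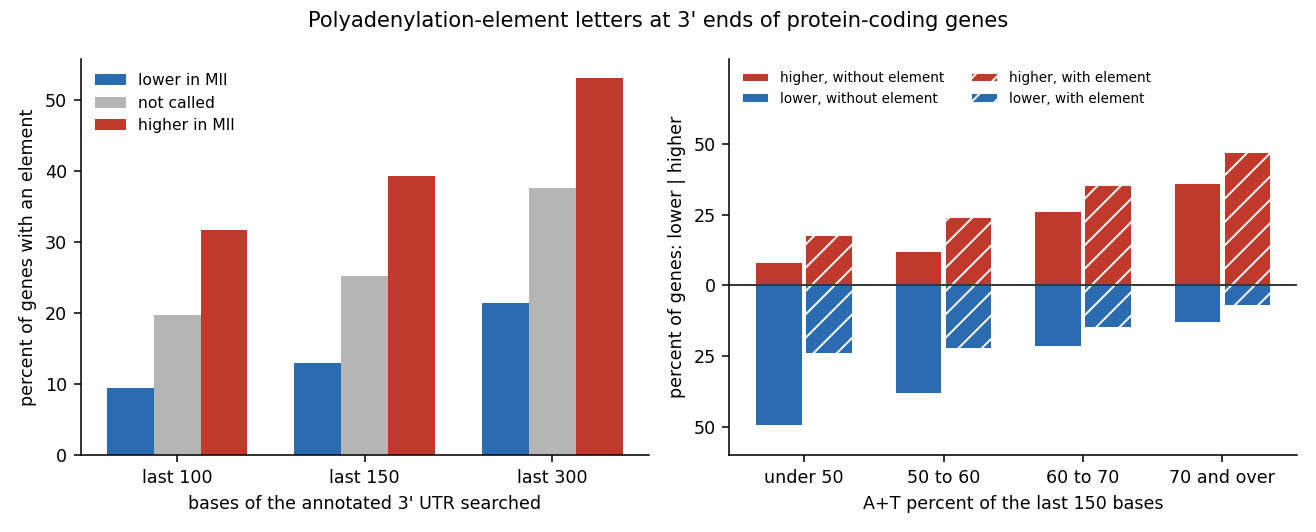
Left, percent of protein-coding genes with TTTTAT or TTTTAAT in the last 100, 150 or 300 bases of the 3′ UTR, by call, highest in genes that rose in each window. Right, percent of genes higher (above 0) and lower (below 0) in MII by A+T content of the last 150 bases, without (plain) and with (hatched) an element, where hatched bars reach higher above 0 in each of the 4 ranges.

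Transcript length and base composition also differed along the whole gene. The median exonic length was 5347 bases for genes that rose, 3024 for genes that fell and 3736 for those not called. Among protein-coding genes, those in the shortest of 4 equal ranks (204 to 2709 bases) rose in 13.1% and fell in 40.1%, and those in the longest (6887 bases and more) rose in 36.2% and fell in 14.8%. Ranked by GC content, the lowest of 4 such groups rose in 38.3% and fell in 13.1%, and the highest rose in 10.7% and fell in 41.3%. The median 3′ UTR was 1433 bases for protein-coding genes that rose and 555 for those that fell. Length, GC content, 3′ UTR length and A+T content are linked, and which of them goes with the change was not tested.

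**Figure D5:**
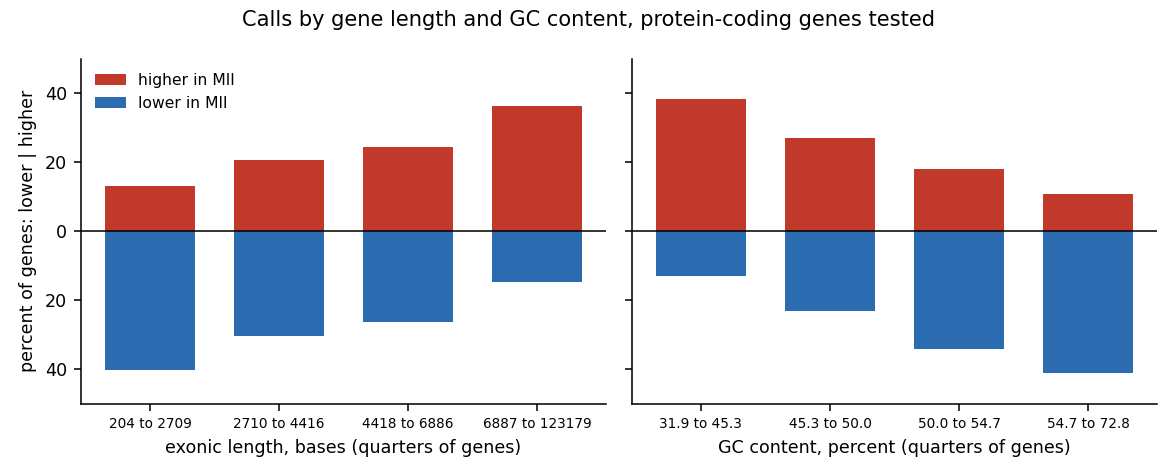
Percent of protein-coding genes tested that were higher (above 0) or lower (below 0) in MII, in 4 groups of equal size by exonic length (left, bases) and GC content (right, percent). Bars above 0 grow from 13.1% to 36.2% with length and shrink from 38.3% to 10.7% with GC content.

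Ribosomal protein genes fell as a group. Of 81 cytoplasmic ribosomal protein genes tested, 75 fell and 3 rose (median -3.56). Their summed level was 41700 and 27620 CPM in the GV libraries and 3442 and 3774 CPM in the MII libraries. Rpl35 went from 616 and 259 CPM to 6.96 and 7.07 CPM (-5.96 ± 0.52), Rpl21 from 1237 and 651 CPM to 19.9 and 21.7 CPM (-5.50 ± 0.46) and Rps4x from 867 and 637 CPM to 26.7 and 27.6 CPM (-4.79 ± 0.36). The 3 that rose were Rpl13a (1.66 ± 0.37), Rps27l (1.48 ± 0.42) and Rps15a (1.22 ± 0.38), and the calls of the last pair were lost without control GV replicate 2 or either MII library. Processed copies of these genes are frequent in the mouse genome, so the split of reads between copies is uncertain for single members.

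Other parts of the translation and ribosome assembly machinery fell as well. Of 51 translation factors, 28 fell and 8 rose (5 without MII library b), with a median of -1.72. Eef1d, an elongation factor subunit, went from 447 and 454 CPM to 3.42 and 5.85 CPM (-6.60 ± 0.43), Eif6, which binds the large ribosomal subunit, from 587 and 542 CPM to 7.54 and 4.96 CPM (-6.50 ± 0.45) and Eif3g from 286 and 203 CPM to 3.58 and 4.82 CPM (-5.86 ± 0.39). Eif4a2, a helicase of initiation, rose from 20.2 and 45.8 CPM to 202 and 189 CPM (2.56 ± 0.40), and Eif4e3, a cap-binding relative, from 206 and 211 CPM to 864 and 849 CPM (2.04 ± 0.26). Of 50 ribosome biogenesis genes, 30 fell and 6 rose (median -1.88), with Heatr1 (-5.69 ± 0.49), Bms1 (-5.37 ± 0.40) and nucleolin, Ncl (-3.86 ± 0.37), among the falls and Dkc1 (1.58 ± 0.31) and Npm1 (1.44 ± 0.28) among the rises.

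Both genomes that build the respiratory chain moved, in opposite directions. Of 79 nuclear-encoded genes of oxidative phosphorylation, 62 fell and 3 rose (median -2.90), and their summed level was 10960 and 8931 CPM at GV and 2693 and 2938 CPM at MII. Sdhd, of complex II, went from 139 and 104 CPM to 1.04 and 2.08 CPM (-6.27 ± 0.44), Uqcrq, of complex III, from 319 and 230 CPM to 3.73 and 4.03 CPM (-6.14 ± 0.43) and Ndufa8, of complex I, from 308 and 233 CPM to 5.69 and 5.78 CPM (-5.56 ± 0.38). Ndufa10 (1.79 ± 0.33), Ndufa4 (1.16 ± 0.33) and Sdha (1.08 ± 0.25) rose, and the call of Ndufa4 was lost without any 1 of the control libraries.

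All 15 genes of the mitochondrial genome list rose (median 4.90). The median was 6.76, with 14 called, without control GV replicate 1 and 4.25, with 13 called, without control GV replicate 2. mt-Cytb was at 1058 and 166 CPM in the GV libraries and at 17844 and 18580 CPM in the MII libraries (4.90 ± 0.76, adjusted p = 0.000529), mt-Nd1 at 1361 and 211 CPM and then 12578 and 14934 CPM (4.13 ± 0.74), and mt-Co1 at 457 and 160 CPM and then 6380 and 8660 CPM (4.61 ± 0.58). The mitochondrial ribosomal RNA mt-Rnr2 rose from 137 and 112 CPM to 2467 and 2809 CPM (4.41 ± 0.38). The GV libraries differed from each other, with 0.446% and 0.105% of reads on mitochondrial genes, and both were far below the 6.03% and 6.93% of the MII libraries. Leaving these genes out of the counts gave 3167 rises and 4402 falls among the others. Whether library preparation captured mitochondrial RNA equally at both stages was not tested.

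Energy metabolism and protein quality genes fell more often than they rose. Of 43 genes of glycolysis and the TCA cycle, 17 fell and 5 rose (median -0.82). Oocytes use pyruvate rather than glucose. Pkm, the pyruvate kinase gene, went from 761 and 812 CPM to 50.3 and 63.1 CPM (-3.79 ± 0.33), Mdh2, a malate dehydrogenase, from 126 and 163 CPM to 4.77 and 3.27 CPM (-5.17 ± 0.41), and Ldhb, the lactate dehydrogenase of the oocyte, from 4241 and 5527 CPM to 1191 and 939 CPM (-2.20 ± 0.39). Suclg2 (2.07 ± 0.31) and Idh1 (1.84 ± 0.38) rose. Ckb, the brain-type creatine kinase, went from 486 and 466 CPM to 1.65 and 1.22 CPM (-8.37 ± 0.45).

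Of 35 proteasome genes, 22 fell and 2 rose (median -1.99). Psmc4, an ATPase of the regulatory particle, went from 400 and 317 CPM to 8.35 and 8.36 CPM (-5.42 ± 0.50), and Adrm1, a ubiquitin receptor, from 303 and 240 CPM to 9.73 and 11.7 CPM (-4.66 ± 0.31). The risers were Psmd1 (2.13 ± 0.28) and the activator gene Psme4 (1.94 ± 0.29). Ubb, a polyubiquitin gene, went from 6743 and 3910 CPM to 287 and 353 CPM (-4.06 ± 0.47). Of 34 chaperone and unfolded protein response genes, 16 fell and 4 rose (median -1.38). Without single control libraries 1 or 2 rose, and the median was -0.79 without control GV replicate 2. Hsph1 went from 307 and 391 CPM to 4.81 and 6.11 CPM (-6.00 ± 0.36) and Ern1, the IRE1 sensor of the endoplasmic reticulum, rose from 206 and 199 CPM to 798 and 730 CPM (1.91 ± 0.28).

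Antioxidant genes gave 11 falls and 4 rises among 29 (median -1.11), with 1 rise without either control GV library or with library totals and 2 without either MII library. Sod1, the cytosolic superoxide dismutase, went from 1320 and 1069 CPM to 42.9 and 31.2 CPM (-5.01 ± 0.37) and Gsta4 from 218 and 124 CPM to 3.81 and 2.64 CPM (-5.73 ± 0.48). Among 25 cholesterol synthesis genes, 5 fell and 4 rose, near or under the background, and the median of -0.01 changed sign with the settings. Without control GV replicate 2, 2 fell and 2 rose, and without control GV replicate 1 or MII library b, 3 fell and 2 rose. Fdft1, the squalene synthase gene, stood out with 2595 and 2186 CPM at GV and 14.5 and 17.6 CPM at MII (-7.21 ± 0.43, adjusted p = 9.03e-06), while Insig1, which retains the sterol sensor in the endoplasmic reticulum, rose by 2.51 ± 0.56 and Sc5d by 2.16 ± 0.28.

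In the DNA damage list of 34 genes, 12 rose (35.3%) and 9 fell (26.5%), against 21.2% and 27.9% of all genes tested (median 0.31). Without control GV replicate 1 or MII library a, 7 rose, and without the latter the median was -0.04. Both Ku genes of end joining fell: Xrcc6 went from 98.0 and 77.9 CPM to 1.31 and 1.06 CPM (-6.21 ± 0.45) and Xrcc5 from 234 and 147 CPM to 3.12 and 2.61 CPM (-6.05 ± 0.43). Chek1, the checkpoint kinase, rose from 119 and 140 CPM to 540 and 611 CPM (2.15 ± 0.26), and Rpa3, of the single-strand binding complex, from 79.8 and 36.4 CPM to 415 and 439 CPM (2.88 ± 0.40). Of 30 small RNA pathway genes, 13 fell and 4 rose (median -0.91). The piRNA factors Gtsf1 (-5.82 ± 0.46), Tdrd12 (-4.01 ± 0.36) and Tdrd1 (-3.64 ± 0.31) fell, and the silencing factors Tnrc6b (2.54 ± 0.28) and Ago3 (2.06 ± 0.28) rose. Piwil1, a PIWI gene, also rose, from 15.1 and 25.5 CPM to 72.7 and 76.1 CPM (1.87 ± 0.34).

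Rises outnumbered falls among chromatin and nuclear envelope genes. Of 70 chromatin modifiers, 30 rose and 7 fell (median 0.75). Bmi1, a Polycomb subunit, rose from 69.6 and 104.8 CPM to 876 and 987 CPM (3.42 ± 0.36), Kdm6a, a histone demethylase, from 12.5 and 16.8 CPM to 86.001 and 132 CPM (2.90 ± 0.32), and Arid2, a remodeller subunit, from 70.4 and 73.2 CPM to 358 and 358 CPM (2.32 ± 0.26). Arid1a, the gene deleted in the other arm of the series, rose in controls from 380 and 458 CPM to 1617 and 1293 CPM (1.80 ± 0.42, adjusted p = 0.00564). Kat8, an acetyltransferase, went from 476 and 225 CPM to 4.42 and 6.48 CPM (-6.00 ± 0.50), and Sirt6 (-2.89 ± 0.49) and Smarcb1 (-1.97 ± 0.28) fell.

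Of 43 nuclear pore and lamina genes, 22 rose (14 without control GV replicate 1 or MII library b) and 6 fell, with a median of 0.94. Seh1l rose from 18.4 and 25.5 CPM to 122 and 148 CPM (2.62 ± 0.29), Nup153 by 2.52 ± 0.30 and Nup37 by 2.28 ± 0.27. Kpna2, an importin, went from 612 and 684 CPM to 84.6 and 73.6 CPM (-3.03 ± 0.29) and the lamin gene Lmna from 91.0 and 141 CPM to 10.3 and 12.7 CPM (-3.34 ± 0.36). RNA polymerase II and Mediator genes gave 23 falls (39.7%) and 13 rises (22.4%) among 58, against 27.9% and 21.2% of all genes tested. Their median was -0.04, and named members ran from Polr2i (-4.70 ± 0.46) and Med17 (-4.39 ± 0.37) to Gtf2a1 (3.19 ± 0.28) and Med13 (3.72 ± 0.43).

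Replication-dependent histone mRNAs lack poly(A) tails and were near the detection limit. Only 21 of 63 in the table could be tested, and 6 fell (28.6%, near the 27.9% of all genes tested) and none rose (median -2.82). Their summed level was 157 and 135 CPM at GV and 52.1 and 51.1 CPM at MII, and the number called ran from 0 (without control GV replicate 1) to 9 over the settings. Hist1h2bk had 33 and 24 reads at GV and 0 in both MII libraries, at least 11.8-fold lower, a call lost without either GV library.

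For fertilization, 9 of 25 genes of sperm fusion and calcium signalling fell and 7 rose (median -0.28), 36% and 28% against 27.9% and 21.2% of all genes, with 2 to 4 rises when any 1 control library was left out. Izumo1r, which encodes JUNO, the egg receptor for sperm, went from 709 and 594 CPM to 42.3 and 51.2 CPM (-3.80 ± 0.33). Orai1, a calcium channel of the cell surface, went from 267 and 345 CPM to 9.77 and 9.98 CPM (-4.95 ± 0.46). Slc39a10, a zinc importer, rose from 45.8 and 69.7 CPM to 337 and 380 CPM (2.63 ± 0.30). Camk2g, the kinase that calcium activates in the egg, rose from 535 and 368 CPM to 868 and 1010 CPM (1.06 ± 0.30, adjusted p = 0.0147), a call lost without control GV replicate 2 or either MII library.

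The steepest single falls ended close to 0 reads. Wdr91, an endosomal regulator, went from 76.4 and 97.0 CPM to 0.0769 and 0.165 CPM (-9.40 ± 0.50, adjusted p = 7.89e-06). Sipa1, a regulator of RAP GTPases, went from 178 and 158 CPM to 0.423 and 0.297 CPM (-8.86 ± 0.42), and Lrrc36 from 157 and 119 CPM to 0.462 and 0.463 CPM (-8.20 ± 0.46). Ccdc107 had 1923 reads at GV and 3 at MII, a depth-adjusted ratio of 794 (95% exact counting interval 271 to 3855). Fbp2, a gluconeogenic enzyme gene, had 1080 and 2 reads (669, interval 184.8 to 5532). Groups that did not overlap were a condition for naming these genes, and the groups did not overlap for 12125 of the 15572 genes tested. Cpsf4l, a relative of a cleavage factor, was at 5334 and 2719 CPM at GV and at 16.7 and 18.8 CPM at MII (-7.83 ± 0.53).

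Outside the mitochondrial genome, the steepest rises among protein-coding genes with at least 20 CPM in both MII libraries began near 0 reads. Spp1, which encodes the secreted protein osteopontin, was at 0.557 and 0.0419 CPM at GV and at 154 and 228 CPM at MII (9.34 ± 1.21, adjusted p = 0.000186). Nupr1, a stress-induced nuclear protein, went from 0.835 and 0.545 CPM to 59.7 and 84.4 CPM (6.70 ± 1.42). Plag1, a zinc finger factor, rose from 2.00 and 4.78 CPM to 82.5 and 91.1 CPM (4.67 ± 0.49) and Ttc8, a ciliary gene, from 1.62 and 1.72 CPM to 41.1 and 39.9 CPM (4.59 ± 0.40). Plag1 and Ttc8 were also called higher in MII in knockout oocytes, but Spp1 and Nupr1 were not. Knockout values were 1.66 ± 1.16 for Spp1 and 2.12 ± 1.28 for Nupr1 (edgeR quasi-likelihood F-test, adjusted p = 0.254 and 0.193). The difference between genotypes did not pass for Spp1 or Nupr1 (edgeR test of the difference, adjusted p = 0.150 and 0.379).

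Marker lists of somatic cells were read beside these rises. All 15 oocyte markers were present in each library, at summed levels of 52670 and 56880 CPM at GV and 31410 and 29360 CPM at MII. The summed level of 30 granulosa and cumulus markers was 302 and 329 CPM at GV and 478 and 559 CPM at MII, and 4 of 23 tested rose and 4 fell. Among these Ptx3, a cumulus matrix gene, had no read at GV and 153 and 41 reads at MII, at least 27.3-fold higher. Star, Ptgs2 and Tnfaip6 stood out in MII library b only, with 414, 87 and 154 reads, and Areg, Ereg, Fshr and Lhcgr had no read in either MII library.

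For blood and immune cells, 23 markers summed to 78.5 and 71.7 CPM at GV and to 9.42 and 59.3 CPM at MII, with 1 of 7 tested rising and 2 falling. C1qb held 1492 and 1211 reads at GV and 8 and 66 at MII, and Csf1r, the other fall, 12 and 3 reads and then none. Cd52 had no read at GV and 108 and 304 reads at MII, at least 53.6-fold higher, and Cd74 had 1095 reads in MII library b and none in library a. Ptprc, Lyz2, Cd14 and Adgre1 had no read in any control library. Theca and stroma markers (14 genes) summed to 4.11 and 3.22 CPM at GV and 6.61 and 2.89 CPM at MII, and none of 4 tested was called. Endothelial markers (10 genes) summed to 22.2 and 28.3 CPM and then 85.3 and 88.9 CPM, with Flt1, Kdr and Pecam1 rising while Eng and Emcn had no read. Oviduct and surface epithelium markers (12 genes) summed to 10.2 to 19.2 CPM over the 4 libraries, with Epcam rising. The part of such cells in the rises of Spp1 and Nupr1 was not tested. Both rises held without MII library b, but library a also held reads of Ptx3 (153) and Cd52 (108), so this cannot decide that part.

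Noncoding RNA moved in both directions. Of 1478 long noncoding RNA genes tested, 370 fell (25%) and 154 rose (10.4%), and of 852 pseudogenes, 268 fell (31.5%) and 57 rose (6.69%), against 27.9% and 21.2% of all genes. C86187 rose from 2044 and 833 CPM to 7598 and 6617 CPM (2.30 ± 0.53), and AA545190 went from 88.6 and 74.96 CPM to 376 and 540 CPM (2.49 ± 0.29). 9130204K15Rik went from 330 and 199 CPM to 6.96 and 7.70 CPM (-5.17 ± 0.46), and Gm14820, annotated as antisense and therefore uncertain without strand, from 554 and 287 CPM to 11.2 and 10.7 CPM (-5.26 ± 0.48). Gm23935, annotated as a microRNA gene at chr16:11144125-11144181, had 84 and 145 reads at GV and 114995 and 157080 reads at MII (9.91 ± 0.78). Among 37 microRNA genes tested, 30 fell and 5 rose.

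Knockout oocytes, which share no library with the controls, served as a comparison for the same step. Both contrasts came from the same fit of all 8 libraries, with the same filter and estimate of spread, so their calls are not independent. Of the 7649 control calls, 6031 were also called there with the same sign and 11 with the opposite sign. In knockout oocytes 7627 of the 15572 genes were called (49.0%), so the shared calls were 78.8% of the control calls and 79.1% of the knockout calls. The change from GV to MII differed between genotypes for 13 of the 15572 genes (0.0835%, edgeR test of the difference, adjusted p below 0.05). Rps4x was the only 1 of the 231 genes chosen for naming among them.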

How the data were processed

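The deposited table held raw read counts per gene made by the authors, who per the submitters' processing notes used Bowtie2, HTSeq, edgeR and build mm10; no source used here gives versions, the strand setting, the read layout or more on the kit than standard Illumina protocols. The 5 summary rows (unassigned reads, 25.2% to 35.1% of counts in the control libraries, with reads lacking a unique position at 10.3% to 12.2% of counts) were left out of library sizes and tests, so reads shared by near-identical copies were not counted. The molecule is labelled total RNA, and whether cDNA was primed at poly(A) tails is not given. Changes in tail length could then change capture, which was not tested.

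Genes were kept by filterByExpr over the 4 groups, scaled by TMM and tested with edgeR 4.0.16 (glmQLFit, glmQLFTest) in R 4.3.3. All 8 libraries, with 1 term per group, shared the estimate of spread (4 residual degrees of freedom), and the contrast was control MII minus control GV. P-values were adjusted by Benjamini-Hochberg over 15572 genes. SE is the fold change over the root of the F statistic. Names, lengths and 3′ UTRs came from GENCODE M21, in which 54809 of 54838 rows had a symbol. The script was tested on simulated counts. Alternatives were DESeq2 1.42.0, other scalings and filters, a minimum fold, the control libraries alone and leaving out each library. Intervals and floors of 3 reads cover counting error only.

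The members and gene lists were chosen with earlier results of these data known. Genes were named by rule. The 12 largest rises and falls were taken among protein-coding genes. These had to have 20 CPM or more in both libraries of the higher stage and groups that did not overlap. The 10 called genes with the highest CPM at each stage were added, and in each list the 3 called genes with the smallest p in each direction. The rule also took 27 textbook genes whether called or not, and the 4 called long noncoding RNAs with the highest CPM in each direction. Genes given by rank per kilobase, by 3′ end or as markers of other cells are named beside it. Fgf8, Piwil1, Cnot6, Cnot8 and the Oog and Oosp genes that fell or were not called were named after their values were seen.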

Additional observations from a re-analysis of the deposited data

Results flagged for a closer look

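Rps4x, an X-linked ribosomal protein gene, changed differently with stage in the 2 genotypes. Its log2 fold change from GV to MII was -4.79 ± 0.36 (SE) in control oocytes and -8.09 ± 0.43 in knockout oocytes, a difference of -3.30 ± 0.46 (edgeR quasi-likelihood test of the difference, adjusted p = 0.0458). It fell in both genotypes and was the only 1 of the 231 named genes whose difference passed. With 2 libraries in each group, single outlying libraries were not looked for.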

How the results depend on the processing

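The number of genes higher in MII went from 3302 to 1895 when a change beyond 1 on the log2 scale was required (glmTreat), a stricter question by its construction, which gave 3370 falls. Leaving out 1 library gave 2158 to 3261 rises, lowest without control GV replicate 1, and 2917 to 4717 falls. In such fits a stage left with 1 library is assumed to vary like the other groups. The other alternatives gave 2663 to 3304 rises and 3435 to 4863 falls. Of the 7649 calls, 95.96% were also called with the same sign using size factors of DESeq2, 96.01% with the DESeq2 Wald test, 91.02% with library totals and 93.35% from the 4 control libraries alone. Rises were 43.2% of calls as reported, 37.8% with library totals and 35.99% with glmTreat.

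Of 222 named genes that were called, 192 kept their call without any single library. Signs turned for 3 genes that were not called. Without single libraries, the Mos log2 fold change ran from -0.38 (control GV replicate 2) to 0.0403 (control GV replicate 1), the Wee2 log2 fold change from -0.28 (control MII library b) to 0.0595 (control MII library a) and the Plat log2 fold change from -0.0699 (control GV replicate 2) to 1.14 (control GV replicate 1). The causes were not tested. No paired analysis was possible because the control MII columns carry no replicate number, so the planned replicate block was not run. At 19587421 to 29740748 reads per library, 3 reads correspond to 0.0991 to 0.139 CPM (TMM), and falls to lower levels are bounds.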
